A study of Mus musculus with 10 samples.

Results

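The transcription factor p53, encoded by Trp53, and 7 genes that it is known to switch on directly were followed in mouse embryonic stem cells that lose the pluripotency factor SOX2. The genes are Mdm2, Cdkn1a, Ccng1, Bbc3, Bax, Phlda3 and Trp53inp1. They were chosen by name, and a gene was kept if its transcribed unit (TU), a stretch of continuous transcription on 1 strand, held more than 10 fragments in at least 2 of the 10 libraries. All 8 genes passed. They are 8 of the 28459 TUs tested, out of 40779 TUs counted.

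The samples were SOX2-FKBP cells, an E14 line in which the endogenous Sox2 gene carries a degradation tag. Per the study's methods, homozygous clones were picked for their response to dTAG-13, and which clone gave each library is not stated in the sources used here. dTAG-13 joins the tag to the protein degradation machinery, and 500 nM was added for 0.5, 1, 2 or 6 h before harvest (hours post depletion, hpd). The control (NT) received DMSO. All cells, NT included, carried the tag, grew with LIF and inhibitors of MEK and GSK3 in serum-free medium, and were labelled with 2 mM 4-thiouridine (4SU) for 10 min, so that TT_chem_seq captures the RNA made in that time. Each of the 5 groups had 2 libraries, of 11131490 to 25854106 fragments in TUs. No untagged cells given dTAG-13 were analysed here, and the effects of the compound and of SOX2 loss cannot be told apart. The files do not say whether replicates were separate cultures, so p-values measure the spread between these libraries.

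The 10 stem cell markers summed to between 3816 and 4859 CPM per library (fragments as counts per 1000000 of the scaled library size). The 5 testable markers of other cell types (Gata4, Gata6, Eomes, Col1a1 and Pax6) summed to between 14.3 and 27.4 CPM. Of 12 such markers listed, 8 had a TU and 5 passed the count filter, so the sum leaves out those below it. Gata4 and Col1a1 averaged about 1 CPM or less in all groups. The sum was 14.3 and 19.8 CPM in the NT libraries and 26.8 and 27.4 CPM at 0.5 hpd, and any part of it in the results was not tested. Of the stem cell markers, Dppa5a fell at all 4 times, Klf4 from 1 hpd, Pou5f1 and Nanog from 2 hpd, Esrrb at 6 hpd and Sall4 at 1 hpd, with log2 fold changes from -1.04 to -0.37. Without NT replicate 2 these calls were lost (adjusted p = 0.05 to 0.26), apart from Dppa5a at 1 hpd and Klf4 and Pou5f1 at 6 hpd, and Dppa5a at 6 hpd had a log2 fold change of -0.33 without replicate 2 of 6 hpd. Eomes rose up to 2 hpd (1.52, 1.64 and 1.79) and Gata6 at 2 hpd (1.14), the latter lost without either NT library (adjusted p = 0.11 and 0.15) or replicate 1 of 2 hpd (0.16). SOX2 is removed as a protein, and labelled Sox2 RNA did not pass the test at any time. Nor did Zfp42, Tfcp2l1 or Tdgf1. Zfp42 overlapped NT throughout. Tfcp2l1 lay below NT at 0.5 and 1 hpd and above it at 2 hpd (106% of NT). Tdgf1 lay above NT at 0.5 and 1 hpd (128% and 118%) and below it at 6 hpd (90.3%). Over all TUs 0.787%, 3.61%, 5.57% and 9.2% were called down at the 4 times, and 0.527%, 2.15%, 4.26% and 6.61% up.

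p53 is held low in unstressed cells by the ubiquitin ligase MDM2, whose gene p53 itself activates, which closes a feedback loop. After DNA damage p53 is stabilised, mostly at the protein level, and raises transcription of genes that stop the cell cycle, repair DNA or trigger apoptosis. Embryonic stem cells contain p53 and have a short G1 phase. p53 binds a consensus made of a pair of adjacent decamers, each with a central C and G.

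The positions below are mm10 (GRCm38.p6). Within 5000 bp of the start of the TU, 3 of the 8 genes held a match to the p53 consensus with at most 1 mismatch outside the central C and G of each decamer. Such a match was present for 344 of the 14997 tested TUs with a gene symbol (2.29%). Allowing 2 mismatches gave 4 of the 8 genes, Bax being added, against 11.2% of all TUs with a symbol. No gene among the 8 held a perfect match, which 0.353% of TUs had. Of 39 further p53 targets, Zmat3 and Ddit4 held one. The matches with 1 mismatch are printed because these genes are the ones with the clearest consensus letters near the start of their TU. Each has 10 bases on either side and the matched 20 bases in capitals, read on the strand of the gene. A match is a description of letters, and no binding was measured here.
Cdkn1a, chr17:29090918-29090957, + strand: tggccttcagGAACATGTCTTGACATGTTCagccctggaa
Ccng1, chr11:40755452-40755491, - strand: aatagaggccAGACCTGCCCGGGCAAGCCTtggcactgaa
Ccng1, chr11:40754926-40754965, - strand: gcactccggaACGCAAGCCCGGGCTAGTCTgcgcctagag
Mdm2, chr10:117717726-117717765, - strand: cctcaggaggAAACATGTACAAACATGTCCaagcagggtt

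The Cdkn1a match lay 375 bp inside its TU and 2.83 kb before the start of the deposited gene model, since the TU began 3207 bp upstream of that model. The Ccng1 matches lay 404 and 930 bp inside the TU. The Mdm2 match lay 3678 bp upstream of its TU and 6.99 kb before the start of the deposited gene model.

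Because Trp53 changed most among the 8 genes, the 250 bases before its RefSeq start are shown. In capitals is a loose form of the SOX core motif (ACAANG on either strand, with any base at N). It occurred 2 times there, and the share of promoters with 2 matches is not given here. The motif was present in the 250 bases before at least 1 start of 3723 of 10897 tested genes with a promoter sequence (34.2%), and of 3 of the 7 genes here that have one (Trp53, Ccng1 and Bbc3).
Trp53, chr11:69580109-69580358, + strand: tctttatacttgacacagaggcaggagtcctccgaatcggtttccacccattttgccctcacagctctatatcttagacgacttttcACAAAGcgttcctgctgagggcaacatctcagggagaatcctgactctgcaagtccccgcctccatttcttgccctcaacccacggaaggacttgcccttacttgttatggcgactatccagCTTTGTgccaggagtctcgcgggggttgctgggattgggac

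Transcription of Trp53 itself fell within 0.5 h of dTAG-13 and stayed low to 6 h. Trp53 had 115 and 107 CPM in the NT libraries, 70.8 and 69.4 after 0.5 h, 59 and 68.2 after 1 h, 57.9 and 70.4 after 2 h, and 58.8 and 68.1 after 6 h. All 8 libraries of depleted cells were below both NT libraries. The mean was 63.1% of NT at 0.5 hpd and between 57.1% and 57.7% later. The log2 fold change was -0.66 ± 0.12 at 0.5 hpd (SE, n = 2 per group), -0.80 ± 0.12 at 1 hpd, -0.79 ± 0.12 at 2 hpd and -0.81 ± 0.12 at 6 hpd, with adjusted p-values of 0.011, 0.00072, 0.00051 and 0.00031 in edgeR. The 95% interval of the fold change at 6 hpd was 0.478 to 0.682, and between 2 and 6 hpd the log2 difference was -0.014, with an interval of -0.27 to 0.24. The fall was called (adjusted p under 0.05) at all 4 times and in the joint test over them (adjusted p = 0.0005). Leaving out either NT library or either 0.5 hpd library raised the adjusted p at 0.5 hpd to between 0.069 and 0.1, with a log2 fold change from -0.71 to -0.61. At 1, 2 and 6 hpd Trp53 was called in each of the 17 alternatives run. Leaving out a library of NT or of the tested time leaves 1 library in that arm, which is then assumed to vary as the other groups do, here and in the values below.

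The Trp53 TU ran from 69580382 to 69602610 on the + strand of chromosome 11, which is 10950 bp past the annotated end of the gene. It therefore holds exons, introns and read-through together. Fragments were kept at a mapping quality of at least 10, and a processed pseudogene, Trp53-ps, resembles its exons, and fragments that map equally well to both would not be counted. The TU drew 812 to 1815 fragments per library.

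On the opposite strand the Atp1b2 TU covered the whole Trp53 TU. Atp1b2, a subunit of the sodium pump, had 10.3 and 9.66 CPM in NT, 6.17 and 6.84 after 0.5 h, 7.15 and 7 after 1 h, 7.18 and 7.66 after 2 h, and 11.1 and 7.4 after 6 h. Its libraries lay below NT up to 2 hpd, and at 6 hpd they overlapped NT, with log2 fold changes of -0.63, -0.50, -0.43 and -0.12 that were not called (adjusted p = 0.16, 0.17, 0.17 and 0.7). The Wrap53 TU, which encodes a telomerase RNA binding protein, runs away from Trp53 and starts 1058 bp before it. It was picked for description after its values were seen. Wrap53 had 65.6 and 61.9 CPM in NT, 44 and 52.4 after 0.5 h, and 51.9 and 53 after 1 h. It had 53.9 and 59.8 after 2 h and 52.1 and 49.8 after 6 h. Both libraries of each time lay below NT. Its log2 fold changes were -0.41, -0.28, -0.17 and -0.32, and none was called (adjusted p = 0.096, 0.18, 0.38 and 0.059).

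**Figure D1:**
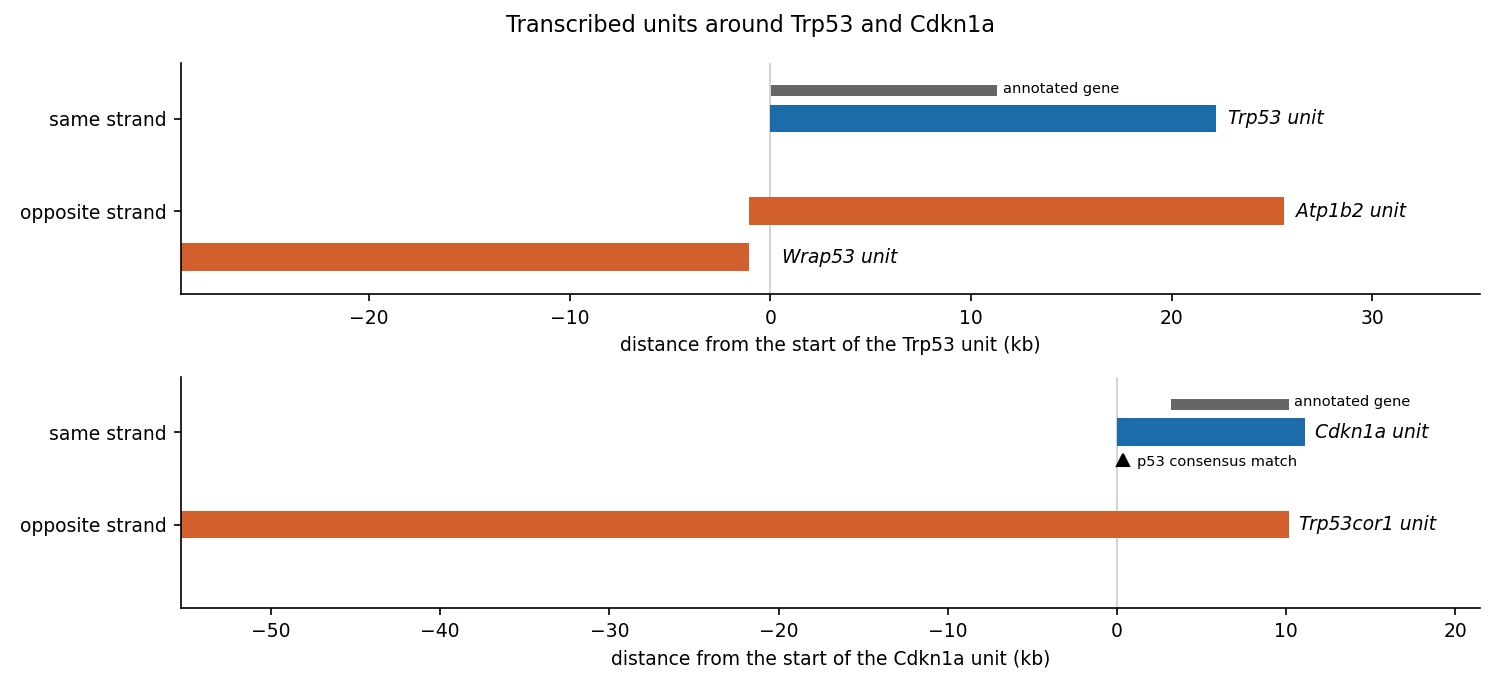
TUs around Trp53 (top) and Cdkn1a (bottom), with distance from the start of each TU in kb on the x axis, blue bars for the gene's own strand, orange bars for the opposite strand, grey bars for the annotated gene and a triangle for the p53 consensus match. The Trp53 TU runs 10950 bp past the annotated end, and the Cdkn1a TU begins 3207 bp before the gene model.

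Mdm2, the ligase that marks p53 for degradation, lay above NT at every time without passing the test. Its libraries held 192 and 197 CPM in NT, 215 and 214 after 0.5 h, 239 and 247 after 1 h, 245 and 234 after 2 h, and 204 and 223 after 6 h. None of the depleted libraries overlapped NT. The log2 fold change was 0.32 ± 0.097 at 1 hpd (SE, n = 2 per group) and 0.30 ± 0.097 at 2 hpd, with adjusted p-values of 0.069 and 0.064 in edgeR. The 95% intervals of these fold changes ran from 1.08 to 1.44 and from 1.07 to 1.42. At 0.5 and 6 hpd the log2 values were 0.14 and 0.13, the second running from 0.072 to 0.21 with 1 library left out. The change at 1 hpd was called in 7 of the 17 alternatives, DESeq2 among them. The TU (chr10:117682148-117714067, - strand) was crossed at its far end by Cpm, a carboxypeptidase gene on the other strand, which averaged 21.3 fragments per library and rose at 2 and 6 hpd (log2 fold change 1.44 ± 0.39 and 1.85 ± 0.38). An antisense TU over the start of Mdm2 stayed between -0.08 and 0.22 on the log2 scale.

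Cdkn1a (chr17:29090562-29101675, + strand) encodes p21, which inhibits cyclin-dependent kinases and is the best known p53 target. It was higher in every depleted library than in either NT library. Cdkn1a had 137 and 146 CPM in NT, 179 and 234 after 0.5 h, 185 and 237 after 1 h, 179 and 246 after 2 h, and 195 and 198 after 6 h. Replicate 2 was the higher in all 5 groups, and up to 2 hpd the gap between replicates was at least as wide as the rise of replicate 1 over NT. The log2 fold change was 0.57 ± 0.16 (SE, n = 2 per group; adjusted p = 0.049 in edgeR) at 1 hpd and 0.59 ± 0.16 (adjusted p = 0.03) at 2 hpd, and both were called. The values of 0.54 at 0.5 hpd and 0.47 at 6 hpd missed the threshold, with adjusted p-values of 0.14 and 0.059. Of the 17 alternatives, 9 called Cdkn1a at 1 hpd and 12 called it at 2 hpd, while the times that missed the threshold were called in 4 (0.5 hpd) and 9 (6 hpd). The call was lost without either NT library at both times (adjusted p = 0.15 to 0.2), without either library of 1 hpd (0.052 and 0.39) or of 6 hpd (0.062 and 0.07) at 1 hpd, and without replicate 2 of 2 hpd (0.19) at 2 hpd. Without replicate 2 of the tested time the log2 fold change of Cdkn1a was 0.35 at 0.5 hpd, 0.38 at 1 hpd and 0.33 at 2 hpd. No difference between neighbouring times was called.

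Trp53cor1 (lincRNA-p21), a long noncoding RNA and p53 target, is read from the strand opposite Cdkn1a, and its TU overlapped 10153 bp of it. It had 35.5 and 34.5 CPM in NT, 39.6 and 48 after 0.5 h, 39.1 and 41.4 after 1 h, 37.9 and 40.9 after 2 h, and 41 and 38.4 after 6 h. All 8 depleted libraries were above NT, while the log2 fold changes of 0.31, 0.20, 0.17 and 0.18 were not called (adjusted p = 0.3, 0.39, 0.4 and 0.32).

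Ccng1, which encodes cyclin G1, stayed closest to its NT level among the 8 genes. Its libraries held 81.9 and 74.7 CPM in NT, 77.1 and 75.9 after 0.5 h, 77 and 83.2 after 1 h, 78.9 and 78 after 2 h, and 79.1 and 73 after 6 h. Every group overlapped NT. The TU lies on the - strand at chr11:40742587-40755875 and runs 5965 bp past the annotated end of the gene. The mean lay between 97.1% and 102% of NT, and across the 4 times the 95% intervals spanned fold changes of 0.838 to 1.19. The opposite Nudcd2 TU, which covers the whole of it, changed by between -0.076 and 0.0043 on the log2 scale.

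The pair of apoptosis genes were not called at any time, and the mean of each was lowest at 6 hpd. Bbc3 (chr7:16307438-16320890, + strand) encodes PUMA, a protein that sets off apoptosis by blocking BCL2 relatives. It had 9.29 and 8.72 CPM in NT, 8.62 and 10.9 after 0.5 h, 8.15 and 8.26 after 1 h, 6.67 and 8.88 after 2 h, and 6.6 and 6.93 after 6 h. At 1 and 6 hpd both libraries were below NT, and the other groups overlapped it. Its log2 fold change at 6 hpd was -0.41 ± 0.18 (SE, n = 2 per group; adjusted p = 0.15 in edgeR). With 94 to 221 fragments per library, Bbc3 was the least covered of the 8 genes. Most of its TU lies opposite Sae1, a much more abundant gene (5848 fragments on average) whose log2 fold changes ran from 0.066 to 0.18.

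Bax (chr7:45459898-45466898, - strand), the effector that opens the outer mitochondrial membrane, had 70.9 and 71.4 CPM in NT, 66.9 and 75.9 after 0.5 h, 61.8 and 73.7 after 1 h, 59.2 and 72.6 after 2 h, and 55.8 and 59.7 after 6 h. Only the 6 hpd libraries lay wholly below NT, at 81.2% of its mean (log2 fold change -0.30 ± 0.12, adjusted p = 0.12 in edgeR), and 1 of the 17 alternatives called Bax down there. The 95% interval of the fold change at 0.5 hpd was 0.835 to 1.2 and at 1 hpd 0.794 to 1.14. The opposite Gys1 TU, which spans Bax, stayed between -0.0095 and 0.10 on the log2 scale.

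Phlda3 encodes a repressor of the kinase AKT, and Trp53inp1 a nuclear protein linked to apoptosis and autophagy. Phlda3 had 32.5 and 41.9 CPM in NT, 38.3 and 54.2 after 0.5 h, 31.5 and 44.9 after 1 h, 30.2 and 41 after 2 h, and 24.3 and 30.3 after 6 h. The groups overlapped NT up to 2 hpd, and both 6 hpd libraries were below it (log2 fold change -0.44 ± 0.21, adjusted p = 0.16 in edgeR), a fall that 2 of the 17 alternatives called. The value at 6 hpd was -0.23 without NT replicate 2 and -0.28 without replicate 1 of 6 hpd. As for Cdkn1a and Bax, replicate 2 was above replicate 1 in all 5 groups. The Phlda3 TU (chr1:135766085-135785395, + strand) ran 16261 bp past the annotated end of a gene of 3050 bp, so most of its fragments need not come from the gene body. Trp53inp1 (chr4:11154502-11177482, + strand) had 142 and 151 CPM in NT, 153 and 149 after 0.5 h, 152 and 187 after 1 h, 171 and 182 after 2 h, and 132 and 140 after 6 h. It was above NT at 1 and 2 hpd and below it at 6 hpd. Its log2 fold changes of 0.21, 0.27 and -0.11 at these times were not called (adjusted p = 0.33, 0.14 and 0.55). With 1 library left out, the first ran from 0.056 to 0.35 and the last from -0.15 to -0.045. Not called either was the step from 2 to 6 hpd (-0.38 ± 0.11, adjusted p = 0.16). The opposite A630034I12Rik TU, which covers Trp53inp1, changed by between -0.25 and 0.076. Small TUs crossing the starts of Phlda3 and Bbc3 on the other strand averaged 16.3 and 19.6 fragments and were not called at any time.

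**Figure D2:**
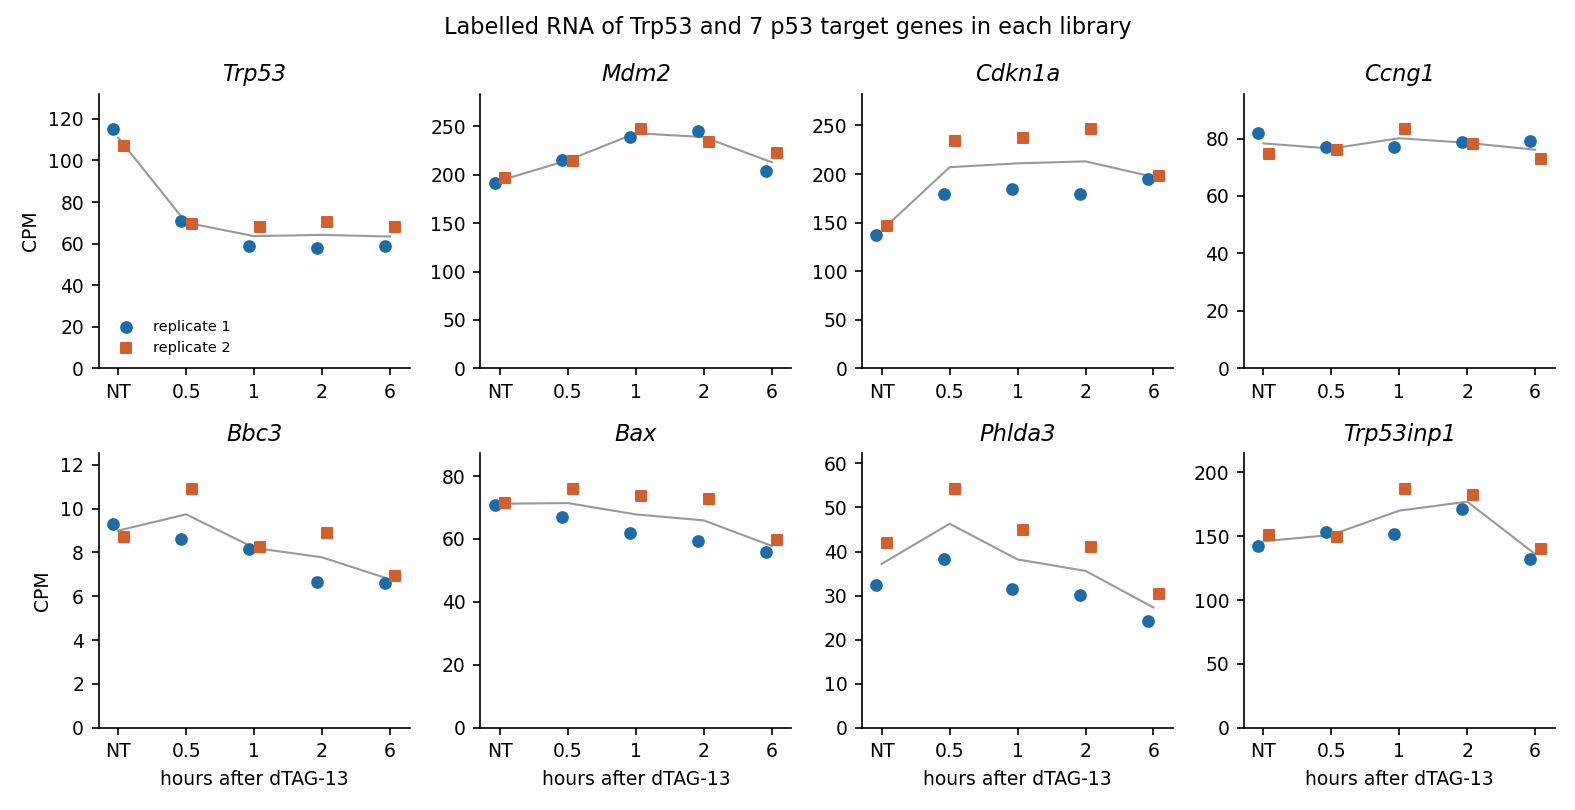
CPM of each gene (y axis, from 0) in each library over NT and hours after dTAG-13 (x axis, evenly spaced), with circles for replicate 1, squares for replicate 2 and a grey line through the group means. Trp53 drops from 115 and 107 CPM to below 71 in every later library, Cdkn1a and Mdm2 sit above NT throughout, and Ccng1 is flat.

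Counted together, 1 of the 8 genes fell at 0.5 hpd (Trp53), where 0.787% of all tested TUs were called down, and none rose, where 0.527% were called up. At 1 hpd 1 rose (Cdkn1a) and 1 fell (Trp53), against 2.15% and 3.61% of all TUs. The same 2 genes made up the calls at 2 hpd, against 4.26% up and 5.57% down. Trp53 alone fell at 6 hpd and none rose, against 9.2% down and 6.61% up. The 4 comparisons share the NT libraries. In the joint test 1 of 8 was called, against 12.3% of TUs. Between neighbouring times none of the 8 was called, where 0.109% (1 against 0.5 hpd), 0.218% (2 against 1 hpd) and 0.777% (6 against 2 hpd) of TUs were. At an unadjusted p under 0.05, 2 of the 8 differed from NT at 0.5 hpd and 3 at 1 hpd, and 4 did so at both 2 and 6 hpd, where 9.61%, 18%, 24.7% and 30.6% of all TUs did. The median log2 fold change of the 8 genes was 0.069, 0.038, -0.031 and -0.2 at the 4 times, beside -0.022, -0.043, -0.04 and -0.036 over all TUs. With library totals as the only scaling, the median of all TUs shifted to -0.056, -0.13, -0.16 and -0.13, neither call of Cdkn1a passed the test (adjusted p = 0.14 and 0.098), and Trp53 was called at all 4 times. The share of calls that were up then moved from 611 of 1637 to 462 of 1695 TUs at 1 hpd and from 1213 of 2798 to 835 of 2901 at 2 hpd.

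**Figure D3:**
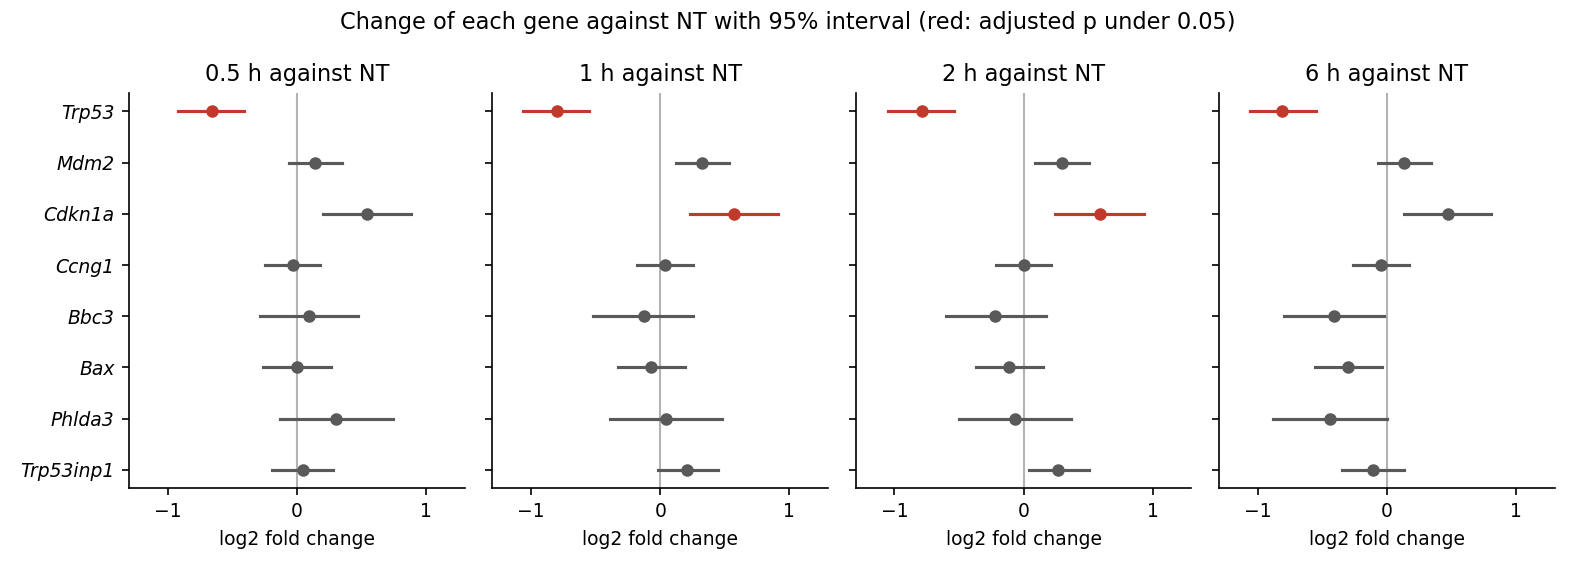
Log2 fold change against NT (x axis) of each gene (y axis) in 4 panels for 0.5, 1, 2 and 6 h, with points for the edgeR estimate, lines for its 95% interval and red for an adjusted p under 0.05. Trp53 is red in every panel, Cdkn1a at 1 and 2 h, and the intervals of Ccng1 hold 0 at each time.

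The level per kb of TU counts read-through as well as the gene, so it is not the rate over the gene body, least of all for Phlda3, whose TU of 19.3 kb holds a gene of 3.05 kb. On this scale the NT level was highest for Cdkn1a at 12.8 ± 0.56 CPM per kb (SD, n = 2), followed by Bax at 10.2 ± 0.042. Trp53inp1 (6.37 ± 0.28), Mdm2 (6.09 ± 0.12) and Ccng1 (5.89 ± 0.38) did not differ beyond their spread. Trp53 came next at 5 ± 0.24, and Phlda3 (1.93 ± 0.34) and Bbc3 (0.669 ± 0.03) were lowest. At 6 hpd Trp53 was at 2.85 ± 0.3 CPM per kb and Cdkn1a at 17.7 ± 0.23, and the order differed only in Mdm2 (6.68 ± 0.41) standing above Trp53inp1 (5.91 ± 0.25).

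The genes with a pattern most like that of Trp53, by Pearson's r of log2 CPM over the 10 libraries among 11937 TUs with a symbol, were Rpap1 (0.980), Pramef12 (0.975) and Cdca5 (0.968). For Mdm2 they were Rbbp4 (0.982), Plcg2 (0.971) and Fnip2 (0.968), and for Cdkn1a Shc1 (0.979), Tgfbi (0.967) and Pdp2 (0.959). These are the highest of many values, and the libraries fall into 5 groups that share the NT level.

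Among 39 further p53 targets, calls ran in both directions. At 0.5 hpd 1 rose and none fell, where 0.527% of all TUs were called up and 0.787% down. At 1 hpd 1 rose and none fell, beside 2.15% and 3.61% of TUs. At 2 hpd 5 of 39 rose and 1 fell (4.26% and 5.57% of TUs), and at 6 hpd 3 rose and 6 fell (6.61% and 9.2%). The joint test called 9 of the 39, against 12.3% of TUs, among them Btg2 (adjusted p = 0.013), an antiproliferative gene, and the noncoding Pvt1 (0.026), neither of which was called at a single time. Their median log2 fold change was 0.015, 0.076, 0.068 and -0.034, beside the medians of all TUs above. Atf3, a transcription factor induced by many stresses, rose at all 4 times. It had 13.2 and 10.7 CPM in NT, 16.9 and 20.2 after 0.5 h, 25.8 and 27.7 after 1 h, 37 and 35 after 2 h, and 31.4 and 28.9 after 6 h. No depleted library overlapped NT, and the log2 fold change peaked at 1.59 ± 0.14 at 2 hpd (adjusted p = 3.7e-06 in edgeR). The rise of 0.62 at 0.5 hpd (adjusted p = 0.044) did not pass once any of the NT, 0.5, 1 or 6 hpd libraries was removed (adjusted p = 0.058 to 0.35).

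The kinase gene Plk3 rose at 2 hpd (log2 fold change 1.01 ± 0.19) and 6 hpd (0.61 ± 0.19), from 6.87 and 6.39 CPM in NT to 13 and 13.7 at 2 hpd. At 2 hpd the immediate early gene Ier5 (0.95), the F-box gene Fbxw7 (0.59) and the TNF receptor family gene Eda2r (0.43) rose as well, and at 6 hpd Apaf1 (0.36), the scaffold of the apoptosome. The receptor kinase gene Epha2 fell at 6 hpd (log2 fold change -1.12 ± 0.1, adjusted p = 3.7e-06), from 204 and 208 CPM in NT to 100 and 88.8, after 229 and 251 CPM at 0.5 hpd. Trp73, a p53 relative, fell at 2 hpd (-1.09 ± 0.21) and 6 hpd (-0.93 ± 0.21). Plk2 (-0.68), the stress-responsive Sesn2 (-0.42), Ei24 (-0.41) and the exonuclease gene Aen (-0.33) fell at 6 hpd. The calls of Atf3 at 1, 2 and 6 hpd, of Plk3, Ier5 and Trp73 at 2 hpd and of Epha2 were also made in each of the 10 fits that left out 1 library. Apart from Atf3 at 0.5 hpd, each of the others was lost without at least 1 NT library (adjusted p = 0.063 to 0.2) and without at least 1 library of its own time (0.054 to 0.34). Plk3 at 6 hpd had a log2 fold change of 0.34 without replicate 1 of 6 hpd, and Fbxw7 one of 0.37 without replicate 1 of 2 hpd. The damage-induced Zmat3 and Sesn1, with at least 620 fragments in each library, were not called at any time. Nor were Gadd45a (53 to 109 fragments) and Gdf15 (52 to 103), whose 95% intervals of the fold change spanned 0.5 to 1.58 and 0.673 to 1.58 over the 4 times. Pmaip1 (6 to 14 fragments per library), Tap1 (4 to 23) and Perp (9 to 42) were also not called. The intervals of Pmaip1 spanned fold changes of 0.37 to 2.2, so its missing calls do not show that it was unchanged.

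**Figure D4:**
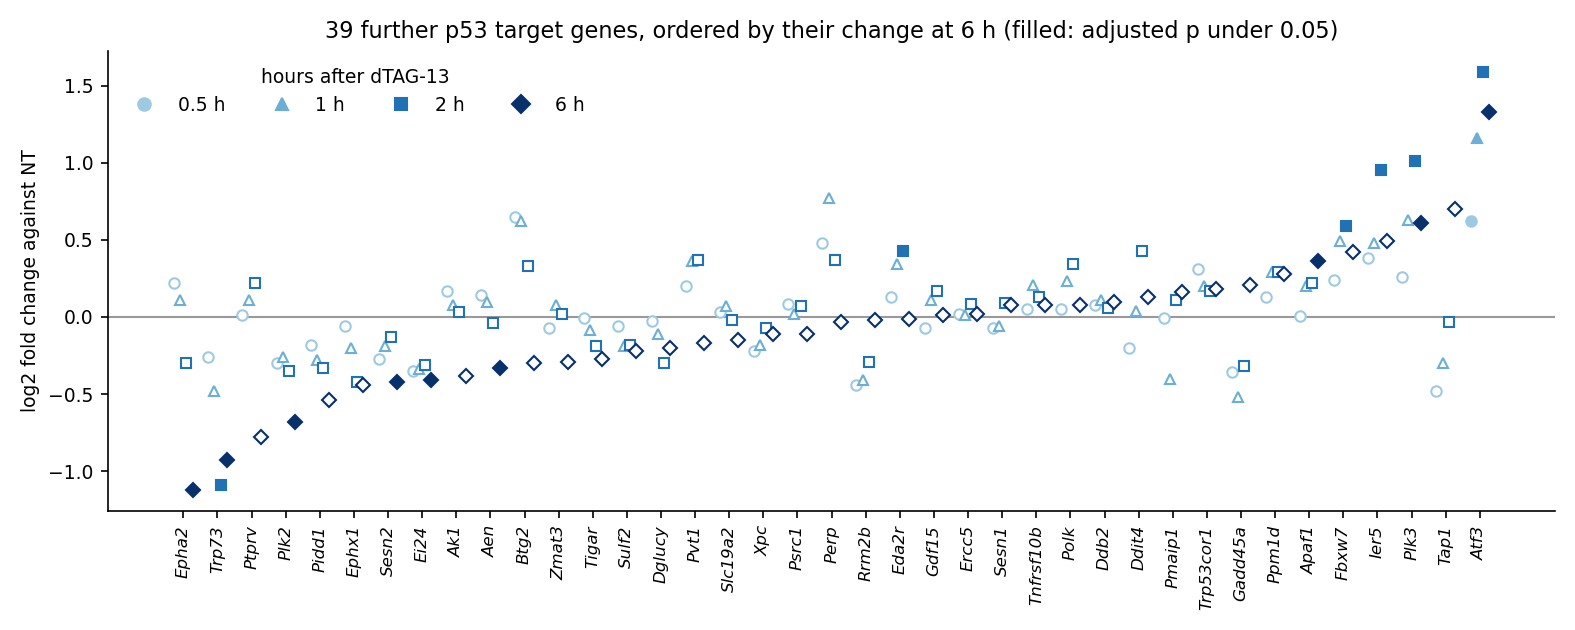
Log2 fold change against NT (y axis) of 39 further p53 target genes (x axis, ordered by the 6 h value), with a symbol for each time and filled symbols for an adjusted p under 0.05. Calls lie on both sides of 0, from Epha2 at -1.12 to Atf3 at 1.59, and most genes have open symbols only.

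Of 25 regulators of p53, none was called at 0.5 hpd, where 0.527% of all TUs were called up and 0.787% down, or at 1 hpd, where the shares were 2.15% and 3.61%. At 2 hpd 1 of 25 rose and none fell, against 4.26% up and 5.57% down over all TUs, and at 6 hpd 2 rose and 1 fell, against 6.61% and 9.2%. The joint test called 2 of 25 (12.3% of TUs). With 1 library left out, 0 to 8 of them rose at 2 hpd. For 6 hpd the number was 0 to 6 up and 0 to 2 down. The 8 and the 6 came without replicate 2 of 2 hpd, a fit in which the TUs called up also rose in number, with 2060 in place of 1213 for 2 hpd and 2596 in place of 1880 for 6 hpd, and neither NT library could be removed without the number up going to 0. Trp53bp1, which encodes the damage mediator 53BP1, rose at 2 hpd (0.51 ± 0.13) and 6 hpd (0.45 ± 0.13). The methyltransferase gene Setd7 rose (0.65 ± 0.18) and Rpl11, a ribosomal protein gene whose product binds MDM2, fell (-0.40 ± 0.11) at 6 hpd. The list's median was 0.017, 0.029, 0.21 and 0.11. All 4 calls among the regulators were lost without NT replicate 2 (adjusted p = 0.12 to 0.24), and all but that of Rpl11 without NT replicate 1 (0.057 to 0.066). Each was also lost without at least 1 library of its own time (0.076 to 0.24), and without replicate 1 of 2 hpd the log2 fold change of Trp53bp1 at 2 hpd was 0.31. Neither the damage kinases Atm and Atr nor the MDM2 relative Mdm4 was called.

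In the BCL2 family, 11 genes besides Bax and Bbc3 were tested. None was called at 0.5 hpd, beside 0.527% of all TUs up and 0.787% down. At 1 hpd 1 rose and 1 fell (2.15% and 3.61% of TUs), at 2 hpd 1 rose and 1 fell (4.26% and 5.57%), and at 6 hpd none rose and 2 fell (6.61% and 9.2%). Bid, a BH3-only gene, fell at 1, 2 and 6 hpd (-0.49, -0.64 and -0.57, each ± 0.11), from 88 and 71.6 CPM in NT to 52.4 and 50.3 at 2 hpd. Bcl2l11, which encodes the pro-apoptotic BIM, rose at 1 and 2 hpd (0.49 and 0.39, each ± 0.11), from 22.5 and 20.2 CPM in NT to 31.7 and 28.5 at 1 hpd. Hrk, another BH3-only gene, fell at 6 hpd (-0.91 ± 0.28) from low counts. The call of Bid at 2 hpd was made with each library left out. That at 1 hpd was lost without NT replicate 1 or either 1 hpd library (adjusted p = 0.11 to 0.17), with a log2 fold change of -0.32 without the NT library, and that at 6 hpd without replicate 2 of 6 hpd (0.051). Without NT replicate 2 the calls of Bcl2l11 (0.12 and 0.24) and Hrk (0.14) were lost, and Bcl2l11 at 2 hpd was also lost with 8 other libraries left out singly (0.05 to 0.2). Bcl2l11 at 1 hpd was lost without either 1 hpd library (0.22 and 0.056), and Hrk without NT replicate 1 (0.12), replicate 1 of 1 hpd (0.051) or replicate 2 of 6 hpd (0.28). The other 8 were not called at any single time. The joint test called 3 of the 11, against 12.3% of TUs, and these were Bid, Bcl2l11 and the BH3-only gene Bmf (adjusted p = 0.036), whose log2 fold change at 6 hpd was 0.66 ± 0.22. The list's median was -0.08, 0.014, 0.0035 and -0.055.

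Of 8 cell cycle inhibitors other than Cdkn1a, none was called up to 2 hpd and 3 rose and none fell at 6 hpd. The shares of all TUs called up were 0.527%, 2.15%, 4.26% and 6.61% at the 4 times, and those called down 0.787%, 3.61%, 5.57% and 9.2%. The joint test called 2 of the 8, against 12.3% of TUs. With 1 library left out, 0 to 3 rose at 6 hpd. The genes that rose were Cdkn2c (1.54 ± 0.33), which encodes p18 and held 20 and 11 fragments in NT against 45 and 54 at 6 hpd, Cdkn2b (0.70 ± 0.23), which encodes p15, and Ccng2 (0.58 ± 0.14), which encodes cyclin G2. All 3 calls were lost without NT replicate 2 (adjusted p = 0.068 to 0.25), and Cdkn2b missed the threshold with 8 other libraries left out singly (0.051 to 0.17). Ccng2 was also lost without replicate 2 of 6 hpd (0.12). All 8 had a log2 fold change above 0 at 6 hpd, where 47% of all TUs lay above 0. Their median was 0.27 and the smallest value 0.03, and the libraries of Cdkn1b, Cdkn2d and Rb1 overlapped NT. At 6 hpd 2 of the 8 genes of the p53 set and 17 of the 39 further targets were above 0. So were 15 of the 25 regulators and 5 of the 11 BCL2 family genes.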

How the data were processed

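Per the study's methods, the authors mapped reads to mm10 with BWA 0.7.17-r1188, kept alignments of mapping quality 10 or more with SAMtools 1.10, removed duplicates with Picard 2.12.0, called TUs on the pooled libraries by strand and deposited a table of fragment counts per TU and library. TUs were thus called on the samples compared. The deposited base-pair positions have starts that count from 0, and 1 was added to them.

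A TU was tested where 2 or more libraries each held over 10 fragments, with edgeR 4.0.16 (R 4.3.3, TMM factors, quasi-likelihood F-test, all 10 libraries, 1 coefficient per group). The filter left out 12320 TUs with 0.316% of the fragments. Every adjusted p is Benjamini-Hochberg over all 28459 TUs, and a call is an adjusted p under 0.05. CPM are fragments per 1000000 of the TMM-scaled library. No spike-in was used in the scaling, so values are relative to all labelled RNA. In bulk samples, fewer labelled cells and less RNA per cell cannot be told apart. Intervals are 95% intervals of the fit.

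The 8 genes and the lists (further targets, regulators, BCL2 family, cell cycle inhibitors, markers) were chosen with earlier results of these data known. Named were all 8 genes, every listed gene called against NT, the gene with the smallest joint p of each list, the TUs opposite the 8 genes and the 3 TUs with a symbol (mean of at least 50 fragments) most like Trp53, Mdm2 and Cdkn1a. In addition, uncalled genes of the lists, such as those known as damage-induced or as p53 regulators, were named after their values were seen. Of the lists, the target Fas and 4 of 12 markers of other cell types matched no TU by symbol and are not analysed here. The p53 consensus was scanned on GRCm38.p6, and promoters are from RefSeq (GRCm38.p6), which matched 7 of the 8 genes. The alternatives were RLE factors, library totals only, DESeq2 1.42.0, testing all TUs, requiring a mean of 50 fragments, fitting 2 groups at a time, a block for the replicate number, and each library left out. The test was checked on simulated data in a single draw, where fitted changes followed those put in, the smallest were mostly not called, and false calls were above the nominal rate. Replicates differed beyond counting noise, by a chi-square of 2.69 to 9.03 for each degree of freedom.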

Additional observations from a re-analysis of the deposited data

Results flagged for a closer look

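Epha2, a receptor kinase gene among the further p53 targets, differed between neighbouring times. It was lower at 6 hpd than at 2 hpd by a log2 difference of -0.83 ± 0.1 (SE, n = 2 per group; adjusted p = 0.0011 in edgeR), with 166 and 169 CPM at 2 hpd and 100 and 88.8 CPM at 6 hpd. Eomes, one of the markers of other cell types, also differed between 6 and 2 hpd, by -1.33 ± 0.19 (adjusted p = 0.0032), with 7.63 and 9.18 CPM at 2 hpd and 3.16 and 3.49 CPM at 6 hpd. Its NT libraries held 2.15 and 2.69 CPM. None of the 8 genes of the p53 set was called between neighbouring times in the fit reported. Calls with a block for the replicate number are given below. With 2 libraries per group no library could be tested as standing apart from its group.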

How the results depend on the processing

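Trp53 was lower than NT at all 4 times under every alternative. It was called at 1, 2 and 6 hpd in each, and at 0.5 hpd in all but the removal of an NT or a 0.5 hpd library. The number of the 8 genes called up at 0.5, 1, 2 and 6 hpd (0, 1, 1 and 0 as reported) was 0, 1, 1 and 1 with RLE factors and with no count filter, 0, 0, 0 and 0 with library totals only, and 0, 1, 0 and 0 with a mean of at least 50 fragments, where the 1 is Mdm2. It was 1, 2, 1 and 1 with only the libraries compared and 0, 2, 2 and 1 with DESeq2. The number called down, 1 at each time, was 2 at 6 hpd with only the libraries compared. The joint test called 1 gene as reported and 2 with DESeq2, and it could not be run on only the libraries compared. Leaving out 1 library gave 0 to 1, 0 to 2, 0 to 1 and 0 to 1 genes up, 0 to 1 down at 0.5 hpd and 1 down at each later time, 0 between neighbouring times and 1 to 2 in the joint test.

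For the 39 further targets the number up (1, 1, 5 and 3 as reported) was 0, 2, 4 and 3 with library totals, 1, 2, 5 and 4 with no count filter, 1, 7, 4 and 4 with only the libraries compared and 1, 3, 6 and 3 with DESeq2. The number down (0, 0, 1 and 6) was 0, 2, 4 and 9 with library totals, 0, 1, 3 and 9 with a mean of at least 50 fragments and 0, 1, 1 and 7 with only the libraries compared. Leaving out 1 library gave 0 to 1, 1 to 4, 3 to 7 and 1 to 4 up and 0, 0 to 1, 1 to 2 and 2 to 8 down. Over all TUs the number up (150, 611, 1213 and 1880 as reported) was 146, 645, 1305 and 2006 with RLE factors, 126, 462, 835 and 1456 with library totals, 149, 657, 1244 and 1957 with no count filter, 167, 617, 1108 and 1447 with a mean of at least 50 fragments, 171, 1751, 926 and 2781 with only the libraries compared and 200, 696, 1336 and 1653 with DESeq2, so the counts of both gene sets stand beside a background that moved as well. Calls up and down together, 374, 1637, 2798 and 4498 as reported, numbered 362, 1695, 2901 and 4562 with library totals. They numbered 322, 1313, 2244 and 3216 with a mean of at least 50 fragments. With only the libraries compared they numbered 412, 3015, 2393 and 5522, and in each fit the TUs down are the remainder. The cause of these shifts was not tested.

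Replicate numbers are shared by the groups, but the labels tie them to no litter, batch or day. The replicate differences of the 10 pairs of groups correlated at 0.0544 to 0.663 across TUs, and with 2 numbers the pairing is not established. With the replicate number as a block, 1, 2, 3 and 1 of the 8 genes were called up, 1, 1, 1 and 3 down, 2 between 2 and 6 hpd and 5 in the joint test. The block added Cdkn1a at 0.5 and 6 hpd, Mdm2 at 1 and 2 hpd and Trp53inp1 at 2 hpd to those up (adjusted p = 0.047 for Trp53inp1), and Phlda3 (0.0019) and Bax (0.02) to those down at 6 hpd. Of the further targets 2, 6, 8 and 5 were up and 2, 2, 5 and 12 down. Over all TUs the block raised the calls at 0.5, 1, 2 and 6 hpd from 374, 1637, 2798 and 4498 to 1120, 3188, 5446 and 7430. Those up went from 150, 611, 1213 and 1880 to 524, 1441, 2713 and 3394, the remainder being down. All-TU numbers of the block for the joint test and the step from 2 to 6 hpd are not given here. The counts of the 8 genes in those tests therefore have no background beside them.

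The sign turned only for genes close to 0 that were never called at that time. With library totals, Ccng1 had log2 fold changes of -0.054 at 1 hpd and -0.11 at 2 hpd, Phlda3 -0.045 at 1 hpd and Bax -0.028 at 0.5 hpd, and with a mean of at least 50 fragments Ccng1 had -0.027 at 2 hpd. Leaving out 1 library gave Ccng1 -0.093 to 0.034 at 0.5 hpd, -0.024 to 0.12 at 1 hpd, -0.062 to 0.067 at 2 hpd and -0.089 to 0.04 at 6 hpd. It gave Phlda3 -0.24 to 0.27 at 1 hpd and -0.31 to 0.14 at 2 hpd, Bax -0.076 to 0.097 at 0.5 hpd, -0.2 to 0.052 at 1 hpd and -0.28 to 0.03 at 2 hpd, Trp53inp1 -0.00071 to 0.095 at 0.5 hpd and Bbc3 -0.051 to 0.27 at 0.5 hpd. Bbc3 had the fewest fragments (94 to 221 per library) and an SE of 0.18, while Phlda3, with 346 to 982, had an SE of 0.2 to 0.21, and how far depth limits either was not tested.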
